A study of Mus musculus with 30 samples.

Results

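The receptors for interleukin-2 and its relatives share a signalling subunit, the common gamma chain, and 5 genes of this receptor family were followed here: Il2ra, Il2rb, Il2rg, Il7r and Il4ra. They were found by their symbols in the probe annotation, taking each probe set that names exactly 1 gene. Of the 5 genes, 4 had such a probe set, and they had 5 probe sets among the 12488 on the array. Il2ra, Il2rb and Il7r had 1 probe set each, and Il4ra had 2. No probe set carried the symbol of Il2rg, the common gamma chain itself, so that gene was not analysed here.

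RNA was measured on 30 Affymetrix MG-U74Av2 arrays from sorted CD4+ T cells of NOD mice, a strain that develops autoimmune diabetes, and all groups carried the BDC2.5 T cell receptor transgene, which gives most CD4+ T cells a single receptor, for an islet antigen. Pancreas set 1 came from mice given rat IgG, with 3 arrays of regulatory T cells (Treg, sorted as CD4+CD25+CD69-) and 5 of effector T cells (Teff, CD4+ with CD25 low or negative and CD69 of either kind), and its labels give no age. Pancreas set 2 came from mice given an antibody to the costimulatory receptor ICOS, with 3 Treg arrays (CD4+CD25+) and 3 Teff arrays (CD4+CD25-) at 26 days, and it held 2 further arrays of IgG Treg cells (CD4+CD25+CD69-), 1 at 26 days and 1 at 4 weeks. The lymph node set came from mice 4 weeks old with no treatment named, and held 5 CD25+ and 3 CD25- arrays of mesenteric nodes and 3 of each of peripheral nodes. The pancreas entries of set 2 describe an infiltrated organ. The labels do not say whether replicates were taken from different mice, and each p-value reflects only how far these samples spread.

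Values are log2 of the deposited intensity. Within a set, array medians spanned at most 0.0978 on the log2 scale, and the medians were 25.3 to 27.1 intensity units in the lymph node set, 27.9 to 29.8 in set 2 and 32.5 to 34.6 in set 1, so levels are ordered only within a set. IgG Treg replicate 3 of set 1 and IgG Treg replicate 2 of set 2 carried the same array number and had r = 0.997 across probe sets. The array labelled anti-ICOS Treg replicate 3 went against its label, and the Treg differences of the receptor genes and Socs2 under anti-ICOS are given with and without it. Of a list of 6 Treg markers, 4 had a probe set (Foxp3 and Izumo1r did not), and their mean log2 level was 6.18 on this array, against 6.25 to 6.42 on the anti-ICOS Teff arrays and up to 8.12 on the other anti-ICOS Treg arrays. The source name of mesenteric CD25+ replicate 2 gives a CD25- sort, and the tissue entries of the peripheral arrays name mesenteric nodes. The titles were followed. Of 6 T cell markers 4 were measured, and 1 fell in CD25+ cells of peripheral nodes and in the mean of both nodes. Cd4 read 5.98 to 6.43 in peripheral CD25+ against 6.70 to 6.86 in peripheral CD25- cells. No listed marker of any cell type was at 0 on any array (the lowest was Ncr1 at 1.96), which does not show that its cells were present. Of the measured markers of macrophages and dendritic cells (6 of 6), granulocytes (4 of 4), exocrine pancreas (2 of 5), islets (4 of 5) and erythroid cells (2 of 3), 0 passed the limma test in any of the 12 comparisons.

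Interleukin-2 binds a receptor of 3 chains. The alpha chain (Il2ra, the surface protein CD25) raises its affinity, while the beta chain (Il2rb, shared with the interleukin-15 receptor) and the common gamma chain carry the signal through JAK1 and JAK3 to STAT5. Regulatory T cells depend on interleukin-2 and are known for high CD25 and low surface CD127, the product of Il7r, which pairs with the common gamma chain to receive interleukin-7, a survival signal of resting T cells. Il4ra encodes the chain that pairs with the common gamma chain to receive interleukin-4 and signals through STAT6. Cish and the Socs genes are switched on by STATs and restrain the same receptors.

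STAT proteins such as STAT5 bind a palindrome of the form TTCNNNGAA, which reads the same on both strands. It was searched in the RefSeq promoters of GRCm38.p6, taken from 250 bases before to 50 bases after each gene's start. Sites of other spacing were not searched. Of 32851 such promoters, 8.3% held at least 1 match and 0.457% held at least 2. A promoter was given for 4 of the 5 receptor genes, and 1 of them, that of Il7r, held a match. Of the 36 other genes of the pathway followed here, 29 had a promoter and 3 held a match, namely Il4, Cish with 2 matches, and Socs3. The Il7r stretch is shown because it is the receptor promoter with a match, and the Cish and Socs3 sites because these feedback genes changed in the comparisons. The matches are in capitals. Il7r lies at chr15:9529977-9530126 on the minus strand, at positions -250 to -101 relative to the start. The Cish site lies at chr9:107296654-107296683 on the plus strand and spans the annotated start, and the Socs3 site lies at chr11:117969501-117969530 on the minus strand, at -164 to -135. A match describes these letters and shows no binding.
Il7r: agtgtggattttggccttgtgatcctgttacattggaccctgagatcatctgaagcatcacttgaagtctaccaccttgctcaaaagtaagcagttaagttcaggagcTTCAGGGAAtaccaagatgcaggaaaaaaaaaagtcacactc
Cish: cagttTTCCTGGAAagTTCTTGGAAatctg
Socs3: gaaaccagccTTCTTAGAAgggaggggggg

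Of the 4 measured receptor genes, the sort marker Il2ra rose in IgG Treg cells of pancreas set 1 and in CD25+ cells of both nodes, Il2rb rose by a small amount in CD25+ cells of the nodes, and Il7r and Il4ra passed the test in no comparison. A gene passed where its adjusted p (limma, Benjamini-Hochberg over all 12422 non-control probe sets) was under 0.05. In IgG-treated pancreas 1 of the 4 genes passed, Il2ra, against 6.69% of all probe sets. In mesenteric nodes 2 of the 4 passed, Il2ra and Il2rb, against 12.2% of probe sets, and in peripheral nodes 1 passed, Il2ra, against 7.69%. In the mean of both nodes 2 of the 4 passed, again Il2ra and Il2rb, against 20.9%. Setting the sort marker aside, no receptor gene passed in pancreas or peripheral nodes. Il2rb alone passed in mesenteric nodes, where 12.2% of probe sets did, and in the mean of both nodes. In that mean, 1 of 3 genes where 20.9% of probe sets passed is close to the background share.

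No receptor gene passed in the other comparisons. In anti-ICOS Treg against Teff cells the count was 0 of 4 against 0% of probe sets, with 209 probe sets at an unadjusted p under 0.05. Anti-ICOS against IgG Treg cells also gave 0 of 4 against 0% (425 at an unadjusted p under 0.05), as did anti-ICOS against IgG Teff cells in a joint fit of both pancreas sets, 0 of 4 against 0% (512). Whether the treatment difference itself differed between Treg and Teff cells was tested in the same fit, with 0 of 4 against 0% (327). IgG Teff cells were in set 1 only, so in Teff cells treatment, set and sort gate went together and cannot be told apart. This holds for each Teff treatment difference and treatment interaction given below. In Treg cells of set 2 the gates of anti-ICOS and IgG cells differed in CD69. Treatment and gate cannot be told apart in any Treg treatment difference given below. Between nodes the count was 0 of 4 against 0.0725% in CD25+ cells and 0 of 4 against 0.451% in CD25- cells. The interaction of sort with node gave 0 of 4 against 0.00805%. The difference of the Treg contrast between pancreas and nodes, fitted jointly on pancreas set 1 and the node set, gave 0 of 4 against 2.08%. Tissue, set, treatment, sort gate and array run went together there and cannot be told apart, wherever this difference is given below. It was taken from values quantile-normalized together, so it need not equal the difference of the separate contrasts.

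**Figure D1:**
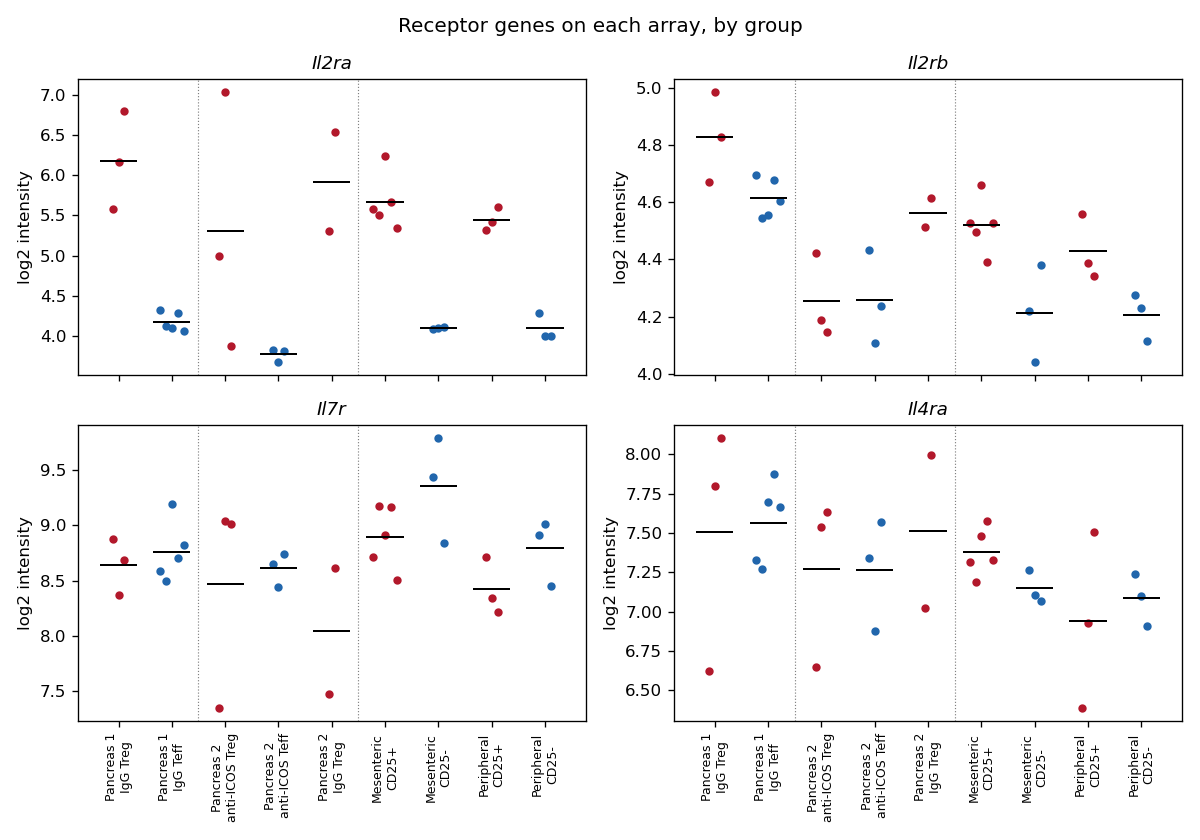
Log2 intensity of Il2ra, Il2rb, Il7r and Il4ra on each array (points) with the group mean (bar), in 9 groups; red marks Treg or CD25+ sorts, blue marks Teff or CD25- sorts, and dotted lines separate the 3 sets. Il2ra separates the sorts except for the anti-ICOS Treg array at 3.88, Il2rb spans 4.04 to 4.98 in all, and the Il7r and Il4ra groups overlap.

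Il2ra, the gene of CD25, was used through its protein to sort the cells, so its levels check the labels. In IgG-treated pancreas the 3 Treg arrays read 5.58, 6.16 and 6.80, and the 5 Teff arrays read 4.33, 4.13, 4.09, 4.28 and 4.06. The groups did not overlap, and the difference was 2.00 (SE 0.22, adjusted p = 0.000676), 4.01-fold in measured intensity. The Teff arrays lay at percentiles 30 to 34.9 of the probe sets of an array and were not shown to be above background, so this is not an exact fold of the transcript. It was 1.35, 2.07 and 2.63 within the 3 runs of consecutive array numbers that the labels show, called A, B and C here. In cells pooled by sorting, fewer cells of a type and less RNA per cell cannot be told apart.

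Under anti-ICOS the Treg arrays spread over most of the range of Il2ra in the series. They read 5.0, 7.03 and 3.88, while the Teff arrays read 3.82, 3.68 and 3.81. The lowest Treg array, the one that went against its label, lay only just above the Teff arrays, and the 7.03 of replicate 2 was the highest value of the 30 arrays. The difference was 1.53 (SE 0.70, adjusted p = 1). It was 2.24 (SE 0.58, adjusted p = 0.38) without the array against its label and 0.67 (SE 0.42, adjusted p = 1) without replicate 2. The 2 IgG Treg arrays of the same set read 5.30 and 6.54, and anti-ICOS minus IgG was -0.62 (SE 0.78, adjusted p = 0.897), or 0.10 (SE 0.64, adjusted p = 0.997) without the array against its label and -1.48 (SE 0.46, adjusted p = 1) without replicate 2. Leaving out IgG Treg replicate 1 gave -1.23 and replicate 2 gave -0.0014 (adjusted p = 1 for each).

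In the nodes Il2ra read 5.58, 5.50, 6.23, 5.67 and 5.34 in mesenteric CD25+ cells and 4.08, 4.10 and 4.11 in mesenteric CD25- cells. It read 5.32, 5.42 and 5.60 in peripheral CD25+ cells and 4.29, 4.00 and 3.99 in peripheral CD25- cells. All 8 CD25+ arrays lay above all 6 CD25- arrays. Mesenteric CD25+ replicate 2, whose source name names the CD25- sort, read 5.50 and lay inside the CD25+ range. The difference was 1.57 (SE 0.16, adjusted p = 7.12e-05) in mesenteric and 1.35 (SE 0.18, adjusted p = 0.00052) in peripheral nodes. From high to low the 4 node groups stood at 5.67 ± 0.34 (SD, n = 5) in mesenteric CD25+, 5.45 ± 0.14 (n = 3) in peripheral CD25+, and 4.10 ± 0.01 and 4.10 ± 0.17 (n = 3 each) in mesenteric and peripheral CD25- cells. The neighbours within each sort did not separate.

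In the joint fit with the nodes the Treg contrast of Il2ra was larger in pancreas by 0.50 (SE 0.24, unadjusted p = 0.0507). This difference did not pass (adjusted p = 0.353), and the gates on CD25 and CD69 differed between the tissues.

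Il2rb, the beta chain through which interleukin-2 and interleukin-15 signal, was dim. Its probe set lay below the array median on all 30 arrays, at percentiles 36.7 to 48.7 of the probe sets of an array, and its values ranged from 4.04 to 4.98.

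In mesenteric nodes Il2rb read 4.53, 4.50, 4.66, 4.39 and 4.53 in CD25+ cells and 4.22, 4.04 and 4.38 in CD25- cells. In peripheral nodes it read 4.56, 4.39 and 4.34 in CD25+ cells and 4.27, 4.23 and 4.11 in CD25- cells. The sorts did not overlap within either node, although mesenteric CD25- replicate 3, at 4.38, lay just under the lowest CD25+ array. The difference was 0.31 (SE 0.09, adjusted p = 0.0461) in mesenteric nodes and 0.22 (SE 0.10, adjusted p = 0.239) in peripheral nodes. Their mean was 0.26 (SE 0.07, 95% confidence interval 0.12 to 0.41, adjusted p = 0.0146), and the difference between nodes was 0.08 (SE 0.14, adjusted p = 1).

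The mesenteric call for Il2rb was lost on leaving out any 1 of 10 of the 14 node arrays, with values of 0.22 to 0.39 over all 14 omissions, and on fitting run D or E as a block (0.30, adjusted p = 0.0674). Within runs the mesenteric difference was 0.38 in D and 0.15 in E, and the peripheral one 0.28 in D and 0.11 in E. The actin ratio and markers of other cells also moved with the sort. The actin ratio, the log2 ratio of 3' to 5' actin probe sets, which rises as transcripts are copied less far toward the 5' end, averaged 2.85 in mesenteric CD25+ and 2.63 in CD25- cells, and 3.02 and 2.54 in peripheral nodes. With this ratio as a covariate the mean node difference of Il2rb was 0.19 (adjusted p = 0.334). CD8 and NK cells also express Il2rb, and 1 of 4 measured genes of a list of 5 of their markers fell in CD25+ cells of each node. The summed level of these markers ranged from 58.4 to 67.6 intensity units in mesenteric CD25+ against 78.6 to 81.4 in CD25- arrays, and from 57.1 to 68.8 against 70.7 to 92.7 in peripheral nodes. Klrd1 separated the sorts, at 3.23 to 3.84 in mesenteric CD25+ against 4.39 to 4.83 in CD25- cells. Cd8a, Cd8b1 and Ncr1 overlapped between the sorts in both nodes. Of 6 B cell markers 5 were measured, and 2 rose in mesenteric CD25+ cells, with summed levels of 439 to 623 against 391 to 396. The part of these in the result was not tested.

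In pancreas Il2rb did not pass. The IgG Treg arrays of set 1 read 4.67, 4.98 and 4.83, and the Teff arrays read 4.70, 4.54, 4.56, 4.68 and 4.60. Treg replicate 1 lay among the Teff arrays and the other 2 above all of them. The difference was 0.21 (SE 0.09, adjusted p = 0.234), and it was 0.05 in run A, 0.43 in B and 0.19 in C. The actin ratio averaged 3.75 in these Treg and 2.65 in these Teff cells, and 3 of 5 measured B cell markers rose in the Treg cells (summed level 601 to 793 against 395 to 473). Of 3 erythroid markers 2 were measured and 0 passed, with summed levels of 2312 to 2886 in Treg and 471 to 2232 in Teff arrays. The part of these in the result was not tested.

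Under anti-ICOS Il2rb did not separate the sorts, with 4.42, 4.19 and 4.15 in Treg and 4.43, 4.11 and 4.24 in Teff cells. The difference was -0.01 (SE 0.14, 95% confidence interval -0.33 to 0.32, adjusted p = 1) and 0.05 without the array against its label. The 2 IgG Treg arrays of set 2 read 4.51 and 4.61, above all 3 anti-ICOS Treg arrays, and anti-ICOS minus IgG was -0.31 (SE 0.16, adjusted p = 0.893), or -0.26 (SE 0.18, adjusted p = 0.991) without that array. The gates of these groups differed in CD69, and only run C held both, where the difference was -0.47 with 1 array each, the anti-ICOS one being the array against its label. In Teff cells anti-ICOS minus IgG was -0.06 (SE 0.09, adjusted p = 0.999), and the treatment by cell type interaction was -0.19 (SE 0.13, adjusted p = 1), or -0.14 (SE 0.14, adjusted p = 1) without that array.

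**Figure D2:**
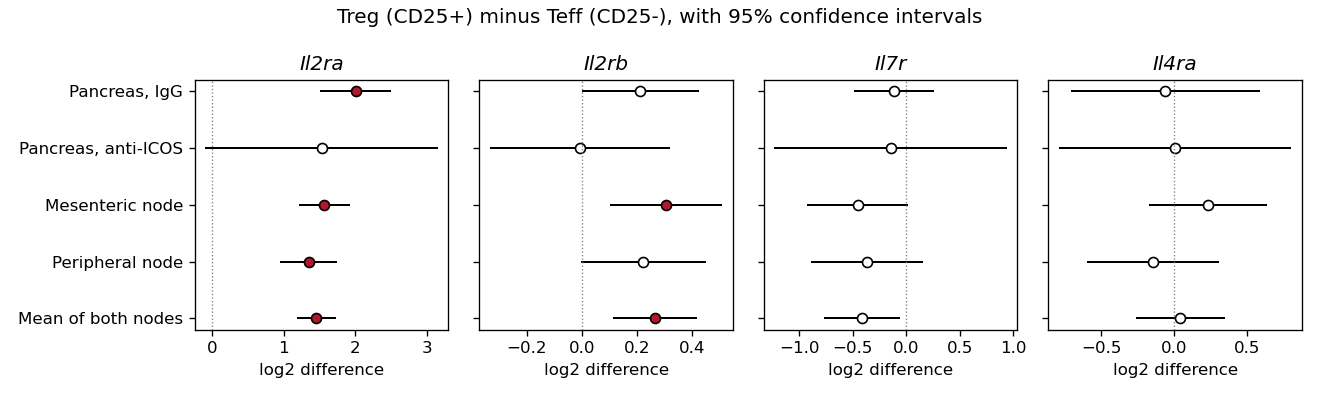
Log2 difference between Treg (CD25+) and Teff (CD25-) cells for the 4 measured receptor genes, with 95% confidence intervals; filled points have an adjusted p under 0.05. Il2ra is positive throughout, the Il2rb mean of both nodes is 0.26 with an interval of 0.12 to 0.41, and the Il7r estimates lie between -0.46 and -0.12.

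Il7r, the alpha chain of the interleukin-7 receptor, was bright in every group, at percentiles 89.3 to 98.9 of each array. In mesenteric nodes it read 8.72, 9.17, 8.91, 9.16 and 8.50 in CD25+ cells and 9.43, 9.79 and 8.84 in CD25- cells. In peripheral nodes it read 8.71, 8.35 and 8.21 in CD25+ cells and 8.91, 9.01 and 8.45 in CD25- cells. The CD25- arrays tended to the upper end in both nodes, but the sorts overlapped in each. CD25+ minus CD25- was -0.46 (SE 0.22, adjusted p = 0.209) in mesenteric nodes and -0.37 (SE 0.24, adjusted p = 0.43) in peripheral nodes. The mean of both nodes was -0.41 (SE 0.16, 95% confidence interval -0.76 to -0.07), with an unadjusted p of 0.0231 and an adjusted p of 0.0901.

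Il7r passed in the nodes only on leaving out 1 particular array, which was 1 of 22 alternatives for mesenteric nodes and 1 of 22 for the mean. Without mesenteric CD25- replicate 3, which read 8.84 and belongs to run E, the mesenteric difference was -0.71 (adjusted p = 0.0487) and the mean of both nodes -0.54 (adjusted p = 0.0203). Within runs the mesenteric difference was -0.66 in D and 0.02 in E, whereas the peripheral one was -0.15 in D and -0.80 in E. The run with the larger difference was thus not the same in the 2 nodes.

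In pancreas the Il7r sorts overlapped. IgG Treg cells of set 1 read 8.87, 8.37 and 8.68, and Teff cells read 8.59, 8.50, 9.19, 8.70 and 8.82. The difference was -0.12 (SE 0.16, 95% confidence interval -0.48 to 0.25, adjusted p = 0.755), with 0.33, -0.82 and -0.08 in runs A, B and C. In the joint fit with the nodes the Treg contrast in pancreas minus that in nodes was 0.16 (SE 0.25, 95% confidence interval -0.36 to 0.69, adjusted p = 0.824). The data thus neither separate the tissues nor show that they are alike.

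The lowest Il7r values of the series were 2 Treg arrays of pancreas set 2. Anti-ICOS Treg cells read 7.35, 9.04 and 9.01 against 8.65, 8.44 and 8.74 in Teff cells, and the 2 IgG Treg arrays read 7.47 and 8.62. The low arrays were anti-ICOS Treg replicate 1 (run A) and IgG Treg replicate 1 (run E), 1 in each treatment. They also had the highest actin ratios of set 2, 4.06 and 4.16, against 2.16 to 2.93 on its other 6 arrays. IgG Treg replicate 1 further had the highest summed macrophage and dendritic cell markers, 880 against 158 to 243 on the rest of set 2. Its erythroid markers summed to 10160 against 98.9 to 2917. In set 1 the IgG Treg arrays had actin ratios of 3.69, 4.53 and 3.02, with Il7r at 8.87, 8.37 and 8.68. The part of the actin ratio or of other cells in the Il7r values was not tested. Treg minus Teff under anti-ICOS was -0.15 (SE 0.47, adjusted p = 1), or -0.42 (adjusted p = 1) without the array against its label and 0.63 (SE 0.18, adjusted p = 0.802) with the actin ratio as a covariate. Anti-ICOS minus IgG was 0.42 (SE 0.52, adjusted p = 0.897) in Treg cells, 0.15 (adjusted p = 0.993) without the array against its label and -0.08 (adjusted p = 0.993) with the actin ratio as a covariate, and -0.15 (SE 0.30, adjusted p = 0.999) in Teff cells.

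Il7r read higher in mesenteric than peripheral nodes in both sorts, by 0.47 (SE 0.22, unadjusted p = 0.0464, adjusted p = 0.972) in CD25+ cells and 0.56 (SE 0.24, unadjusted p = 0.0362, adjusted p = 1) in CD25- cells. Neither passed, and in CD25- cells the difference was 0.93 in run D and -0.18 in run E. The group means ran from 9.35 ± 0.48 (SD, n = 3) in mesenteric CD25- through 8.89 ± 0.29 (n = 5) in mesenteric CD25+ and 8.79 ± 0.30 (n = 3) in peripheral CD25- to 8.42 ± 0.26 (n = 3) in peripheral CD25+ cells. Each neighbouring pair in this order overlapped.

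Il4ra, which pairs with the common gamma chain to receive interleukin-4, did not follow the sort. In mesenteric nodes it read 7.32, 7.19, 7.48, 7.58 and 7.33 in CD25+ cells and 7.27, 7.11 and 7.07 in CD25- cells, and in peripheral nodes 6.39, 6.93 and 7.51 in CD25+ cells and 7.24, 7.10 and 6.91 in CD25- cells. The peripheral CD25+ arrays alone spanned 6.39 to 7.51, nearly the range of all 14 node arrays. CD25+ minus CD25- was 0.23 (SE 0.18, adjusted p = 0.513) in mesenteric and -0.14 (SE 0.21, adjusted p = 0.752) in peripheral nodes, and their mean was 0.04 (SE 0.14, 95% confidence interval -0.25 to 0.34, adjusted p = 0.875). In CD25+ cells mesenteric minus peripheral was 0.44 (SE 0.18, unadjusted p = 0.0327, adjusted p = 0.972), with 0.60 in run D and -0.04 in run E.

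In pancreas the spread of Il4ra among Treg arrays exceeded any difference of the sorts. IgG Treg cells of set 1 read 6.62, 7.80 and 8.10 and Teff cells read 7.33, 7.27, 7.70, 7.88 and 7.66, a difference of -0.06 (SE 0.29, adjusted p = 0.939). Within runs it was -0.67 in A, 0.10 in B and 0.33 in C. Anti-ICOS Treg cells read 6.65, 7.54 and 7.63 against 7.34, 6.88 and 7.57 in Teff cells, a difference of 0.01 (SE 0.34, adjusted p = 1). It was -0.17 (adjusted p = 1) without the array against its label. The 2 IgG Treg arrays of set 2 read 7.03 and 8.0, and anti-ICOS minus IgG was -0.24 (SE 0.38, adjusted p = 0.91), or -0.42 (adjusted p = 0.991) without that array. The second probe set of Il4ra was dim, at 3.99 to 5.04 over the 30 arrays, and passed in no comparison either.

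The pattern of each receptor gene was compared with 8250 other genes over the 9 group means, each centred on the mean of its set, as a description with no test. The genes most like Il2ra were Atg7 (r = 0.995), Mug-ps1 (r = 0.994) and Meg3 (r = 0.992). The genes most like Il2rb were Npy5r (r = 0.987), Git1 (r = 0.986) and Top3a (r = 0.985). For Il7r they were Irgm1 (r = 0.975), Zfp36 (r = 0.972) and Rasa3 (r = 0.971), and for Il4ra Mlf2 (r = 0.929), Tox4 (r = 0.905) and Gjc1 (r = 0.898). Among the receptor genes themselves r was 0.863 between Il2ra and Il2rb, -0.612 between Il2ra and Il7r and -0.633 between Il2rb and Il7r. The points share arrays, and each set's groups were centred together. The anti-ICOS Treg mean includes the array against its label, and the correlations were not repeated without it.

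The other genes of the pathway were 36, of which 31 had a probe set. In IgG-treated pancreas 5 rose in Treg cells and 1 fell, where 3.93% of all probe sets rose and 2.76% fell, with a median difference of 0.01 against 0.03 over all probe sets. In mesenteric nodes 6 rose in CD25+ cells and 2 fell, against 4.66% and 7.53% of all probe sets (median 0.16 against 0.04). In peripheral nodes 4 rose, against 1.8%, and 0 fell by the limma test, against 5.89%, with 2 lower at an unadjusted p under 0.05 (median 0.11 against 0.05). In the mean of both nodes 7 rose and 2 fell, against 9.39% and 11.5% (median 0.10 against 0.05). All the genes that rose were targets or feedback genes of the receptors.

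The other receptor chains, ligands and signal carriers passed in none of these sort comparisons by their brightest probe set. Of 5 further receptor chains 3 were measured (Il9r, Il15ra and Il13ra1), and in the mean of both nodes they read 0.09, 0.13 and 0.01. Of 8 ligands 6 were measured and none passed. All 6 kinases and transcription factors were measured. Jak3, the kinase bound to the common gamma chain, read 0.33 (adjusted p = 0.225) in IgG-treated pancreas and 0.17 (adjusted p = 0.311) in the mean of both nodes. Stat5a, which carries the interleukin-2 signal, read 0.31 (adjusted p = 0.072) and 0.24 (adjusted p = 0.193). In mesenteric nodes Stat5a read 0.50 (adjusted p = 0.066) by its brightest probe set, and its other probe set rose by 0.46 (adjusted p = 0.0187).

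All 13 target and feedback genes were measured. Socs2, a suppressor of cytokine signalling, read 9.08, 9.21 and 9.11 in IgG Treg cells of set 1 against 5.33, 5.60, 5.15, 5.23 and 5.18 in Teff cells. In the nodes it read 9.19, 8.99, 9.06, 7.87 and 8.64 in mesenteric CD25+ against 5.18, 5.28 and 4.71 in CD25- cells, and 8.84, 8.75 and 8.84 in peripheral CD25+ against 4.97, 4.88 and 4.77 in CD25- cells. The sorts were far apart and did not overlap in any of the 3 tissues. Socs2 rose by 3.83 (SE 0.11, adjusted p = 1.07e-07, 14.3-fold) in pancreas, 3.69 (SE 0.24, adjusted p = 8e-07) in mesenteric and 3.94 (SE 0.26, adjusted p = 2.2e-06) in peripheral nodes. Under anti-ICOS it read 8.63, 9.72 and 6.07 in Treg against 6.31, 5.26 and 5.25 in Teff cells, where the low Treg value came from the array against its label, and the difference did not pass (2.53, SE 0.80, adjusted p = 1). Without that array, an omission chosen after the data were seen, it was 3.56 (SE 0.41, adjusted p = 0.0398).

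Cish, which binds activated interleukin-2 receptors and dampens STAT5, rose in the same 3 comparisons. It read 7.79, 8.20 and 7.90 in IgG Treg against 6.56, 6.53, 6.21, 6.65 and 6.63 in Teff cells, a rise of 1.44 (SE 0.13, adjusted p = 0.000168). In CD25+ cells the rise was 0.92 (SE 0.14, adjusted p = 0.00121) in mesenteric nodes, where values of 6.75 to 7.14 stood against 5.87 to 6.14, and 0.89 (SE 0.16, adjusted p = 0.00405) in peripheral nodes, with 6.40 to 7.14 against 5.76 to 6.09. With the actin ratio as a covariate the peripheral difference no longer passed (0.94, adjusted p = 0.0599), and neither node difference passed on grouping mesenteric CD25+ replicate 2 by its source name (adjusted p = 0.0916 in mesenteric and 0.0564 in peripheral nodes). That grouping also ended the mesenteric calls of Socs2 (2.65, limma adjusted p = 0.0777), Pim1 (adjusted p = 0.108), Socs1 (adjusted p = 0.0817) and Gfi1 (adjusted p = 0.072). It ended those of Gata3, Pim2 and Gabpa as well. In the joint fit with the nodes the rise of Cish was larger in pancreas by 0.62 (SE 0.18), which did not pass (adjusted p = 0.0915). Socs1, which blocks JAK kinases, rose by 0.55 (SE 0.14, adjusted p = 0.0452) in pancreas and 0.87 (SE 0.15, adjusted p = 0.00241) in mesenteric nodes, and read 0.44 (adjusted p = 0.146) in peripheral nodes.

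The survival kinase genes Pim1 and Pim2 went in opposite directions. Pim1 read 9.62, 9.12 and 9.11 in IgG Treg against 7.87 to 8.23 in Teff cells, a rise of 1.26 (SE 0.14, adjusted p = 0.000725). It rose by 1.32 (SE 0.19, adjusted p = 0.000808) in mesenteric and 1.70 (SE 0.22, adjusted p = 0.000475) in peripheral CD25+ cells. Its other, dimmer probe set passed in none of the 3. Pim2 read 5.46, 5.45 and 5.58 in IgG Treg against 6.17 to 6.62 in Teff cells and fell by 0.94 (SE 0.11, adjusted p = 0.000859). It fell by 0.56 (SE 0.14, adjusted p = 0.0181) in mesenteric nodes and read -0.54 (adjusted p = 0.0511) in peripheral nodes.

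Gata3, a transcription factor downstream of interleukin-4 and STAT6 that Treg cells also use, rose by 0.71 (SE 0.14, adjusted p = 0.0155) in pancreas, 0.48 (SE 0.14, adjusted p = 0.0455) in mesenteric and 0.62 (SE 0.16, adjusted p = 0.0309) in peripheral nodes, with no overlap of sorts in any of them. With the actin ratio as a covariate the pancreatic calls of Gata3, Pim1, Pim2 and Socs1 were lost, at differences of 0.75 (adjusted p = 0.275), 1.29 (adjusted p = 0.0508), -0.85 (adjusted p = 0.0772) and 0.74 (adjusted p = 0.241), while those of Socs2 and Cish were not. The call of Gata3 was lost in 15 of 22 alternatives in mesenteric and 7 of 22 in peripheral nodes, that of Pim2 in 5 of 22 in mesenteric nodes, and that of Socs1 in 8 of 14 in pancreas. Gfi1, a repressor that curbs T cell genes, rose by 0.60 (SE 0.13, adjusted p = 0.00757) in mesenteric CD25+ cells and read -0.40 (adjusted p = 0.115) in peripheral ones. The targets Mcl1, Ccnd3, Myc and Socs3 passed in none of the sort comparisons.

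**Figure D3:**
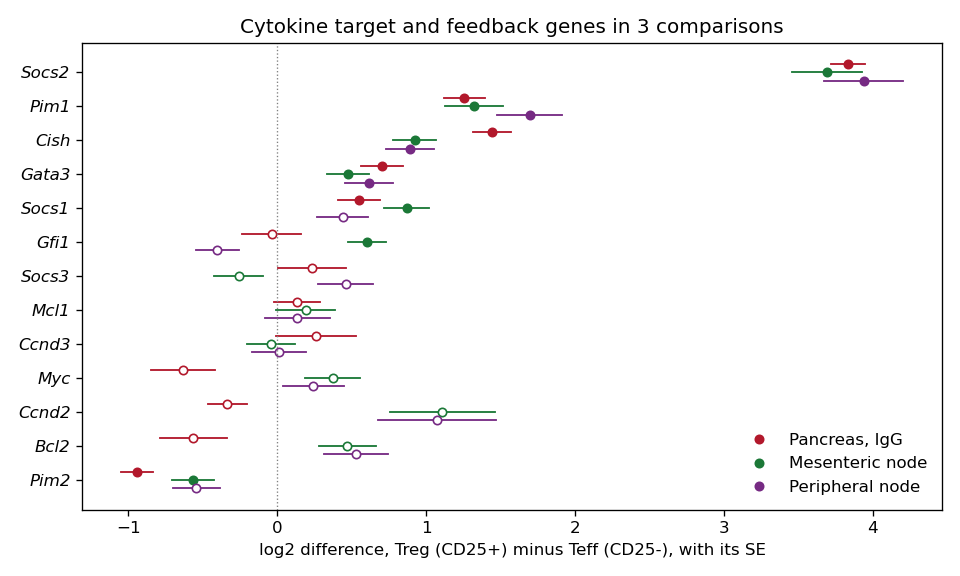
Log2 difference of the 13 target and feedback genes between Treg (CD25+) and Teff (CD25-) cells in 3 tissues, with bars of 1 SE; filled points have an adjusted p under 0.05. Socs2 lies between 3.69 and 3.94 in all 3, and Bcl2 and Ccnd2 lie below 0 in pancreas and above 0 in the nodes.

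Of the 4 regulators of Il7r followed here 3 were measured, and Foxo1 had no probe set. Gabpa, a subunit of the GABP factor that drives Il7r, read 5.36, 4.64, 5.21, 5.11 and 5.20 in mesenteric CD25+ cells against 6.03, 5.89 and 5.95 in CD25- cells. It fell by 0.86 (SE 0.26, adjusted p = 0.0435), but its other probe set read -0.06, and the call was lost in 11 of 22 alternatives. Ets1 read -0.90 (adjusted p = 0.192) and Klf2 -0.10 (adjusted p = 0.626) in mesenteric nodes, and in IgG-treated pancreas Ets1 read -1.63 (SE 0.45, adjusted p = 0.0627), with -0.05 (adjusted p = 0.804) by its other probe set.

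Bcl2 and Ccnd2, a survival and a cell cycle gene that common gamma chain cytokines induce, differed between pancreas and nodes in their Treg contrast. Bcl2 read 6.74, 6.69 and 7.64 in IgG Treg against 7.15, 7.55, 7.80, 7.79 and 7.64 in Teff cells, but 7.64 to 8.31 in mesenteric CD25+ against 7.33 to 7.83 in CD25- cells and 7.30 to 7.83 in peripheral CD25+ against 6.74 to 7.30 in CD25- cells. The contrast was -0.56 (adjusted p = 0.188) in pancreas and 0.50 (SE 0.14, adjusted p = 0.0232) in the mean of both nodes, where the call was lost in 6 of 22 alternatives, 5 of them the omission of 1 array (0.36 to 0.86 over the 22, highest adjusted p 0.174). In the joint fit, on values quantile-normalized together, the difference of the contrasts was -1.18 (SE 0.25, adjusted p = 0.0168). It was -1.53 (adjusted p = 0.0437) and -0.32 (adjusted p = 0.312) by the other 2 probe sets.

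Ccnd2 read 8.54, 8.02 and 8.61 in IgG Treg against 8.62 to 8.88 in Teff cells, and 8.08 to 8.76 in mesenteric CD25+ against 6.91, 6.78 and 8.47 in CD25- cells. In peripheral nodes it read 7.60, 8.11 and 8.04 in CD25+ against 6.24, 6.72 and 7.56 in CD25- cells. All IgG Treg arrays lay below the Teff arrays, and mesenteric CD25- replicate 3, the lowest of its group for Il7r, lay with the CD25+ arrays. The contrast was -0.33 (adjusted p = 0.191) in pancreas and 1.09 (SE 0.26, adjusted p = 0.00922) in the mean of both nodes. The difference of the contrasts in the joint fit was -1.51 (SE 0.36, adjusted p = 0.0316). The difference was called no longer in 13 of 29 alternatives for Ccnd2 and 5 of 29 for Bcl2. For both genes these included values as deposited, without the joint normalization, and the actin ratio as a covariate. Over the 29 the difference was -1.77 to -1.28 for Ccnd2 and -1.45 to -0.79 for Bcl2. Leaving out IgG Treg replicate 2 ended the call of both genes, as leaving out IgG Treg replicate 1 did that of Bcl2. Tissue, set, treatment, sort gate and array run went together in this comparison and cannot be told apart.

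Between nodes 2 of the 31 pathway genes passed, both in CD25- cells, where 0.451% of all probe sets passed. Of 4 measured Treg markers 1 was also lower in mesenteric CD25- cells. Ctla4 read 3.77 to 4.12 in mesenteric against 5.38 to 6.01 in peripheral CD25- cells, so these sorts differed in a Treg marker as well. The part of this in the pathway results was not tested. Socs3, the feedback inhibitor induced by STAT3, read 8.49, 8.58 and 8.16 in mesenteric against 6.80, 6.86 and 6.64 in peripheral CD25- cells, and was higher by 1.65 (SE 0.18, adjusted p = 0.000642, 3.14-fold), or by 0.88 (SE 0.17, adjusted p = 0.0305) by its other probe set. Gfi1 read 5.16, 5.25 and 5.20 in mesenteric against 5.94, 6.0 and 6.41 in peripheral CD25- cells and was lower by -0.91 (SE 0.14, adjusted p = 0.00712). Both differences held within runs, at 1.82 and 1.31 for Socs3 and -0.96 and -0.81 for Gfi1 in D and E. Neither had a sort by node interaction that passed, with -0.72 (adjusted p = 1) for Socs3 and 1.00 (SE 0.19, adjusted p = 0.322) for Gfi1.

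**Figure D4:**
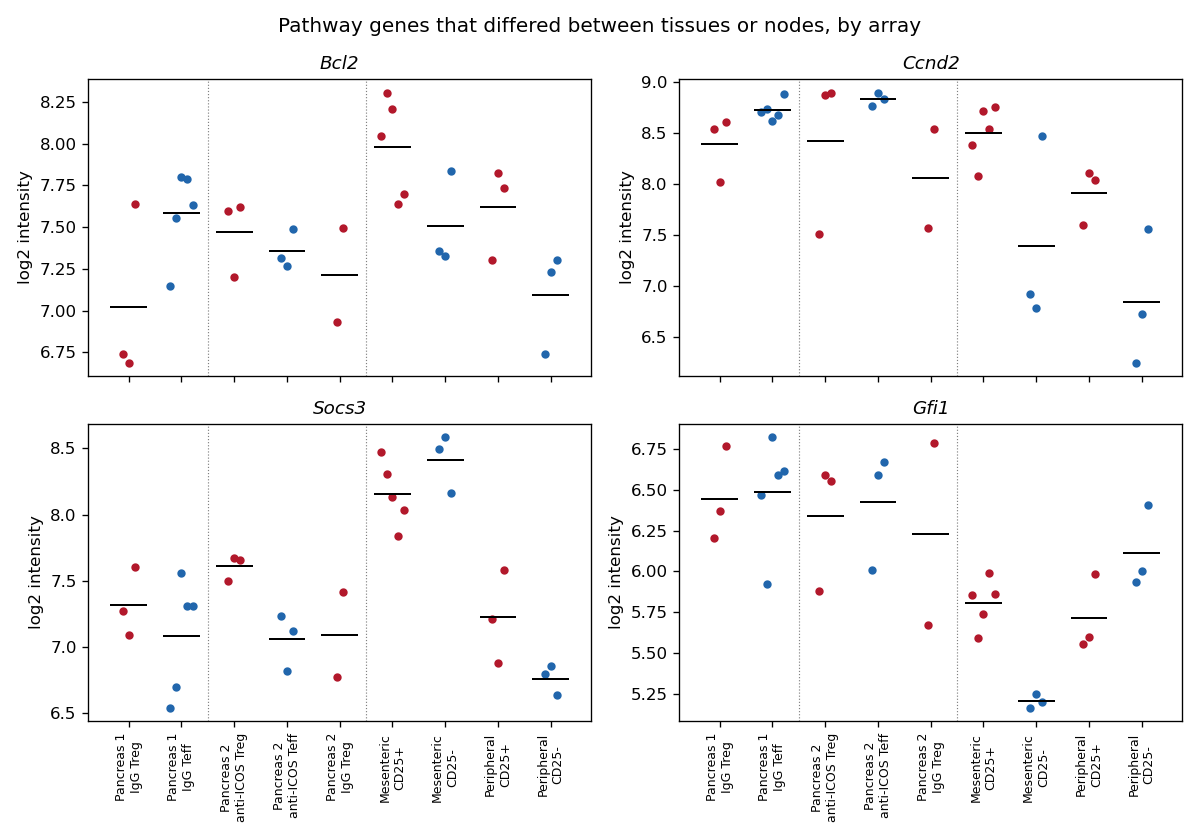
Log2 intensity of Bcl2, Ccnd2, Socs3 and Gfi1 on each array (points) with the group mean (bar), in the same 9 groups and colours. Socs3 reads 8.16 to 8.58 in mesenteric and 6.64 to 6.86 in peripheral CD25- cells, and mesenteric CD25- replicate 3 stands apart for Ccnd2 at 8.47.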

How the data were processed

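The authors deposited 1 linear intensity for each of 12488 probe sets on 30 arrays. Per the submitters' processing notes, intensities of pancreas set 2 and of the nodes were summarised by RMA. The method for set 1 was not given in the sources used here. RNA was extracted with Trizol from sorted cells, per the labels' protocols, with 2 rounds of amplification where they say so. Intensities were taken to log2, the 66 control probe sets were left out, and all other 12422 were tested without a filter. Sets were used as deposited, and fits that joined sets were quantile-normalized.

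Each set was fitted with all its groups in R 4.3.3 with limma 3.58.1 (linear models, eBayes, two-sided, Benjamini-Hochberg adjustment, threshold 0.05), and the script was checked on simulated data. The array present in both pancreas sets was averaged and counted once in the joint fit of 15 pancreatic arrays. A gene stands for its probe set with the highest mean. The named genes were the members and the listed pathway genes that passed. Members and lists were chosen with earlier results of these data known. Control probe sets of the node arrays were stored in another order (r = 0.254 with set 1) and were reordered by name (r = 0.952) for the actin ratio. The number of arrays limits the precision.

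Replicate numbers of anti-ICOS Treg and Teff cells come from the titles, and same-numbered arrays deviated together (r = 0.589, 0.283 and 0.237). The fit with the replicate number as a block called 0 probe sets, as did the fit without it. Alternatives were omission of each array, runs or replicate numbers as a block, the actin ratio as a covariate, other normalizations, bright probe sets only, limma's trend and robust options, and the source-name grouping of mesenteric CD25+ replicate 2.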

Additional observations from a re-analysis of the deposited data

Results flagged for a closer look

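An array far from the others was found in 1 of 32 checks, each of 1 probe set in 1 group of 4 to 10 arrays. Chance gives about 1 in 20, so this is no more than chance gives. The groups of that size were IgG Teff cells of set 1 and mesenteric CD25+ cells, with 5 arrays each, so the checks shared arrays. Cish read 6.21 on IgG Teff replicate 3 against 6.53 to 6.65 on the other 4 Teff arrays. The Treg contrast differed between pancreas and nodes for Bcl2, by -1.18, and for Ccnd2, by -1.51, each by the test of the difference itself. Both calls were lost with values as deposited and with the actin ratio as a covariate.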

How the results depend on the processing

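Over 48 results for the receptor genes, 985 alternatives were run. In 902 the sign and the side of the threshold were kept, in 61 the sign changed with no call on either side, in 19 a call was lost, in 3 one was gained, and 0 calls reversed. Grouping mesenteric CD25+ replicate 2 by its source name gave 1.26 (adjusted p = 0.0714) for Il2ra in mesenteric nodes, 0.24 (adjusted p = 0.201) for Il2rb there and 0.23 (adjusted p = 0.0599) for Il2rb in the mean of both nodes, and left 0 receptor genes past the threshold in mesenteric nodes and 1 in the mean. With the actin ratio as a covariate Il2rb was 0.26 (adjusted p = 0.166) in mesenteric nodes and 0.19 (adjusted p = 0.334) in the mean, and 1 receptor gene passed in each. The cause was not tested. Il2rb in mesenteric nodes was also 0.30 (adjusted p = 0.0674) with run as a block, 0.26 (adjusted p = 0.0667) after quantile normalization and 0.26 (adjusted p = 0.0757) with arrays centred on their medians, and 1 gene passed in each. Leaving out 1 array gave 0.22 to 0.39 for Il2rb in mesenteric nodes, -0.71 to -0.24 for Il7r there and -0.54 to -0.30 for Il7r in the mean, with 1 to 3 receptor genes past the threshold in mesenteric nodes. Values of both pancreas sets as deposited, which shift the median of all probe sets by -0.26 in anti-ICOS against IgG Teff cells, called 4390 probe sets there and 1 receptor gene, Il2rb, at -0.36 (adjusted p = 0.0312).

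The node arrays share replicate numbers, but same-numbered arrays did not all deviate together (r from 0.0259 to 0.323 in mesenteric and 0.015 to 0.23 in peripheral nodes), and 3 of 6 correlated best with their own number in each. With the replicate block Il2rb in mesenteric nodes was 0.35 (adjusted p = 0.0938), 1 receptor gene passed there, and 832 probe sets were called in place of 1514. Over all probe sets the actin covariate left 86 calls of 831 in IgG-treated pancreas and 1055 of 2597 in the mean of both nodes, and anti-ICOS Treg against Teff gave 12 calls without the array against its label and 15 with run as a block. Of the mesenteric calls 579 of 1514 were higher, and 400 of 1468 after centring on array medians. Il2rb lay below the limit of the bright probe sets and has no value under that filter. A dim probe set and 2 to 5 arrays a group limit what can be seen of Il2rb.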
